A study of Homo sapiens with 16 samples.

Results

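The 9 genes described here encode the hemidesmosome and its laminin ligand: the integrin chains ITGA6, ITGB4 and ITGA3, the tetraspanin CD151, the transmembrane collagen COL17A1, the plakins DST and PLEC, and the laminin-332 chains LAMA3 and LAMB3. They were taken by symbol from a table of 26229 listed genes, and all 9 were found and passed the filter on low counts, among 14673 genes tested.

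Hemidesmosomes are the junctions that fasten basal keratinocytes to the basement membrane. Outside the cell, integrin α6β4 (the products of ITGA6 and ITGB4) binds laminin-332, to which LAMA3 and LAMB3 contribute the α and β chains. Inside the cell, plectin (PLEC) and the epidermal product of DST tie the integrin and collagen XVII (COL17A1) to keratin filaments. Integrin α3β1, whose α chain is encoded by ITGA3, binds the same laminin in focal adhesions, and CD151 associates with both integrins. Inherited loss of several of these genes causes blistering of the skin.

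RNA was sequenced from A431, an epidermoid carcinoma line, and HaCaT, a line of spontaneously immortalised keratinocytes, both kept in the same serum-containing medium. Each line gave 8 libraries. These were 1 from cells with control siRNA (siCTRL), 3 from cells with YAP1 siRNA (siYAP), 1 from cells with an empty vector and 3 from cells with YAP5SA, a constitutively active YAP1 mutant. The siRNA cells carried no vector and the vector cells no siRNA, and the siRNA was given in 2 transfections 24 h apart, with RNA taken 48 h after the second. The comparison addresses which of these genes change with loss or gain of YAP, a transcriptional coactivator. Every control group holds 1 library, so the spread between control cultures was not measured, and the p-values rest on the spread within the 4 treated triplicates. The study's methods name biological triplicates, and the labels add no more on how the libraries of a triplicate were separated.

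Library totals ran from 18115624 to 46791673 estimated counts, with a median of 26622174. YAP1 lay at 94.2 CPM (counts scaled to library size, with TMM factors) in the A431 siCTRL library and at 5.34, 6.99 and 5.04 CPM in the A431 siYAP libraries. In HaCaT the same values were 254 CPM against 23.2, 21.6 and 21.8 CPM. With YAP5SA the YAP1 reads, which include the construct, reached 1494 to 3244 CPM in A431 and 7546 to 22243 CPM in HaCaT. All 7 markers of basal keratinocytes, among them ITGA6, ITGB4 and COL17A1, were detected in every library, with a summed level of 2800 to 8042 CPM. The 3 leukocyte markers summed to at most 0.255 CPM, the 4 melanocyte markers to at most 3.78 CPM and the 6 fibroblast markers to at most 27.9 CPM, while the endothelial pair summed to as much as 52.0 CPM. This came from CDH5, at 12.1 to 51.8 CPM in the siRNA libraries and 0.127 to 2.43 CPM in the vector libraries, with PECAM1 at most 1.68 CPM, and its part in the results was not tested.

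One library stood apart in base composition. In the HaCaT empty vector library the quintile of genes richest in GC (above 58.1%) averaged 1.07 lower on the log2 scale than the poorest quintile (below 41.4%), relative to each gene's mean over all libraries, while the other 15 libraries lay between -0.55 and 0.51. The genes described here span this range. Their transcript GC content was 67.0% for PLEC, 63.7% for ITGB4, 63.1% for CD151, 59.9% for ITGA3, 58.9% for LAMB3, 55.9% for COL17A1, 50.7% for LAMA3, 44.7% for ITGA6 and 41.3% for DST. Called differences of the 9 genes that use that library are therefore given again with an offset for GC content in the same model.

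**Figure D1:**
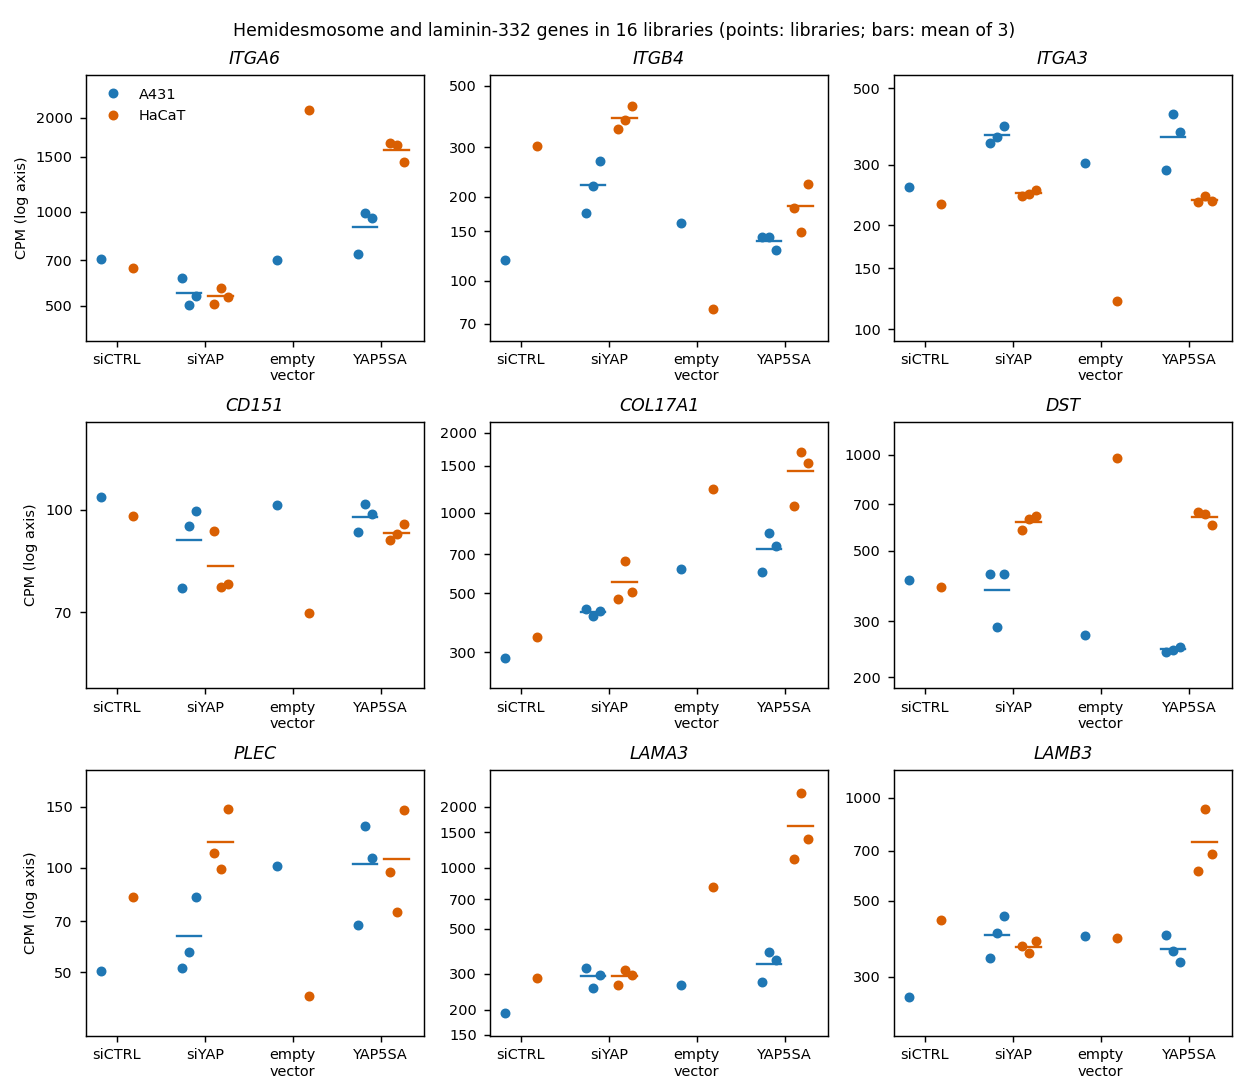
Level of each of the 9 genes (CPM on a log axis) by treatment, 1 point per library, A431 in blue and HaCaT in orange, with a bar at the mean of each triplicate. The HaCaT empty vector library holds the highest ITGA6 (2118 CPM) and DST (974 CPM) and the lowest ITGB4 (79.2 CPM) and ITGA3 (120 CPM) of the HaCaT libraries.

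The chains of integrin α6β4 did not move together. ITGA6, the α chain, lay at 704 CPM in the A431 siCTRL library and at 616, 503 and 536 CPM in the siYAP libraries. In HaCaT it lay at 660 CPM against 507, 569 and 533 CPM. All 6 siYAP libraries were thus below their control, at a log2 fold change of -0.33 over both lines (SE 0.12, FDR 0.0995), which was not called. FDR is the Benjamini-Hochberg adjusted p of edgeR's quasi-likelihood test over all genes, and called genes are those below 0.05 whose mean logCPM exceeds 1. When both controls of a line were pooled, ITGA6 was lower with siYAP over both lines (-0.86, FDR 0.0182) and in HaCaT (-1.37, FDR 0.0107), both called, while A431 was at -0.35 (FDR 0.662). The added control in HaCaT, the empty vector library, held 2118 CPM against 660 CPM in siCTRL. In A431 the 2 controls held 703 and 704 CPM. The pooled HaCaT value thus rests on 1 library of vector cells, the one that stood apart in base composition.

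ITGB4, the β chain whose long cytoplasmic tail binds plectin, lay at 119 CPM in A431 siCTRL and at 175, 218 and 267 CPM with siYAP. HaCaT siCTRL gave 305 CPM and the siYAP libraries 349, 376 and 421 CPM. Every siYAP library was above its control. ITGB4 rose with siYAP in A431 (log2 0.89, SE 0.24, FDR 0.0473, 1.85-fold) and over both lines (log2 0.61, SE 0.17, FDR 0.0305). In HaCaT alone the value was 0.33 (SE 0.23, FDR 0.477), and the difference between the lines was not called (-0.56, SE 0.32, FDR 0.538). The A431 call was lost without siYAP replicate 2 (FDR 0.0842) or replicate 3 (FDR 0.118), and the call over both lines without the third siYAP library of A431 (FDR 0.0520) or of HaCaT (FDR 0.0542). Both calls were kept at smaller sizes with the GC offset, 0.61 in A431 and 0.42 over both lines, and the A431 call was lost against both controls (0.66, FDR 0.461). Fewer cells that express a gene and less RNA per cell cannot be told apart in such bulk libraries.

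With YAP5SA the α chain lay at 733, 990 and 955 CPM in A431 against 703 CPM with empty vector. In HaCaT it lay at 1658, 1643 and 1442 CPM against 2118 CPM. Neither difference was called (0.34, FDR 0.803, and -0.42, FDR 0.116). The β chain was at 143, 143 and 128 CPM against 161 CPM in A431, which was not called (-0.22, SE 0.22, FDR 0.866). In HaCaT it was at 183, 150 and 222 CPM against 79.2 CPM, a rise of 1.22 (SE 0.25, FDR 0.0101, 2.33-fold). With the GC offset it was 0.61 (FDR 0.0317) and still called. The HaCaT siCTRL library, at 305 CPM, lay above all 3 YAP5SA libraries, and against siCTRL and empty vector as 2 controls the ITGB4 difference was -0.054.

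The direct comparison of the triplicates, YAP5SA against siYAP, does not use the control libraries, but vector and siRNA differ in it together with YAP. ITGA6 was higher with YAP5SA in A431 (log2 0.69, SE 0.13, FDR 0.00106) and in HaCaT (1.56, SE 0.13, FDR 2.65e-07, 2.95-fold). ITGB4 was lower in A431 (-0.67, SE 0.16, FDR 0.00593) and in HaCaT (-1.05, SE 0.16, FDR 7.26e-05). For both genes the triplicates did not overlap in either line. The ratio of ITGA6 to ITGB4 in CPM, in which gene length cancels between libraries, ran from 1.26 to 1.51 in HaCaT siYAP, was 2.17 in HaCaT siCTRL, ran from 6.49 to 10.98 in HaCaT YAP5SA and was 26.8 in HaCaT empty vector. In A431 the order was siYAP at 2.01 to 3.53, empty vector at 4.38, siCTRL at 5.94 and YAP5SA at 5.11 to 7.45, so that siCTRL lay inside the YAP5SA range and empty vector below it. The pair was opposed across all 16 libraries after centring on each line (Pearson's r -0.897, A431 alone -0.779, HaCaT alone -0.923). These points share lines and treatments, and the genes differ in GC content, so r is a description.

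**Figure D2:**
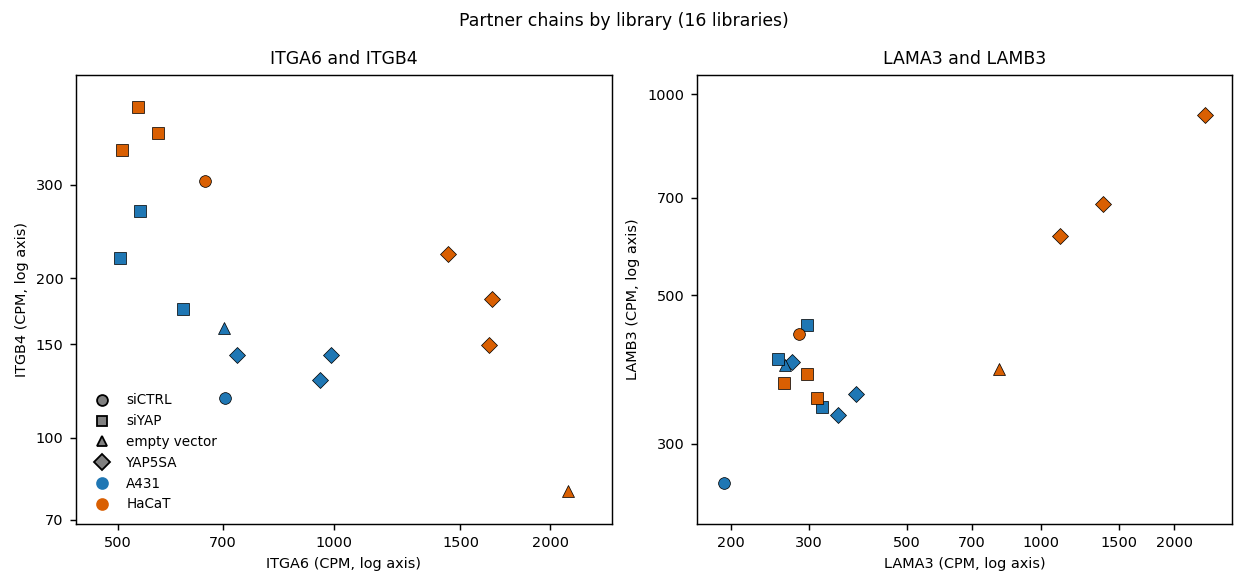
ITGB4 against ITGA6 (left) and LAMB3 against LAMA3 (right) in the 16 libraries, CPM on log axes, with shape for treatment and colour for line. Within each line ITGB4 tends to fall as ITGA6 rises (r -0.897 after centring on each line). The plotted values are not centred. The HaCaT YAP5SA libraries hold the highest values of both laminin chains.

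ITGA3, the α chain of the laminin-binding integrin of focal adhesions, lay at 260 CPM in A431 siCTRL and at 347, 363 and 390 CPM with siYAP. HaCaT gave 232 CPM against 244, 246 and 254 CPM. The siYAP libraries lay above their control in 6 of 6 cases, and edgeR called no comparison (0.30 over both lines, SE 0.12, FDR 0.119). DESeq2 called the A431 difference (0.50, FDR 0.0439). With YAP5SA, A431 gave 290, 422 and 375 CPM against 303 CPM. HaCaT gave 234, 244 and 236 CPM against 120 CPM. ITGA3 rose in HaCaT (0.98, SE 0.18, FDR 0.00675, 1.98-fold) and over both lines (0.62, SE 0.12, FDR 0.0294). In A431 alone the difference was not called (0.26, SE 0.17, FDR 0.824). The HaCaT siCTRL library, at 232 CPM, lay just below the YAP5SA libraries, and against both controls neither the HaCaT difference (0.44, FDR 0.206) nor that over both lines (0.40, FDR 0.127) was called. With the GC offset neither rise was called (0.59, FDR 0.0593, and 0.46, FDR 0.0775). The call over both lines was also lost without A431 YAP5SA replicate 2 (FDR 0.0527) or replicate 3 (FDR 0.0671).

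CD151, the tetraspanin partner of these integrins, varied least. It lay between 76.2 and 104 CPM in A431 and between 69.9 and 97.7 CPM in HaCaT, a 1.37-fold and a 1.40-fold range. All 6 siYAP libraries were below their control, at -0.23 over both lines (SE 0.11, FDR 0.190), which with the GC offset was a called fall of 0.41 (FDR 0.0182). YAP5SA gave -0.06 in A431 (FDR 0.959) and 0.40 in HaCaT (FDR 0.108), and the HaCaT value turned to -0.16 with the GC offset.

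COL17A1 encodes collagen XVII, whose ectodomain reaches from the basal membrane of the cell towards laminin-332. It lay at 286 CPM in A431 siCTRL and at 435, 409 and 428 CPM with siYAP. In HaCaT it lay at 341 CPM against 477, 662 and 505 CPM. All 6 siYAP libraries were above their control and the rise over both lines was called (0.63, SE 0.18, FDR 0.0404, 1.54-fold). The single lines gave 0.57 (FDR 0.218) and 0.68 (FDR 0.153). This call was lost when any 1 of 5 of the 6 siYAP libraries was left out (FDR 0.0571 to 0.0715), the exception being HaCaT siYAP replicate 1, and kept with the GC offset (0.62, FDR 0.0436). Against siCTRL and empty vector together it turned to -0.30, since the empty vector libraries held 617 CPM in A431 and 1223 CPM in HaCaT.

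The vector libraries as a whole held more COL17A1 than the siRNA libraries. YAP5SA gave 597, 838 and 752 CPM in A431 and 1065, 1685 and 1540 CPM in HaCaT. Against their own empty vector these differed by 0.24 (SE 0.25, FDR 0.868) and 0.23 (SE 0.25, FDR 0.571), neither called. Against siYAP they were higher by 0.78 (SE 0.18, FDR 0.00416) in A431 and 1.38 (SE 0.18, FDR 1.58e-05) in HaCaT.

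Of the plakins, DST had 1 call against a control and PLEC none. DST, whose epidermal product is the bullous pemphigoid antigen BPAG1e, lay at 406 CPM in A431 siCTRL and at 421, 288 and 421 CPM with siYAP, groups that overlap (-0.11, SE 0.18, FDR 0.785). In HaCaT it lay at 383 CPM against 580, 628 and 642 CPM, all above the control, at 0.69 (SE 0.19, FDR 0.0515). That value missed the threshold by a narrow margin and passed it with the GC offset (0.69, FDR 0.0418), with DESeq2 (0.68, FDR 0.0075) and with the stricter count filter (0.71, FDR 0.0405). Against siCTRL and empty vector together it turned to -0.14 (FDR 0.755). The difference between the lines was 0.79 (SE 0.26, FDR 0.256). With YAP5SA, DST was at 240, 243 and 250 CPM in A431 against 271 CPM, which was not called (-0.15, FDR 0.884). In HaCaT it was at 661, 651 and 601 CPM against 974 CPM, a fall of 0.61 (SE 0.18, FDR 0.0359). With the GC offset the HaCaT fall was 0.32 and not called (FDR 0.269), and without YAP5SA replicate 3 it missed the threshold (FDR 0.0849). The HaCaT siCTRL library, at 383 CPM, lay below all 3 HaCaT YAP5SA libraries, and against both controls the value was -0.09 (FDR 0.866).

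PLEC, which encodes the linker plectin, had the highest median coefficient of variation of the 9 genes within triplicates, 28.7% (21.4% to 34.9%), although LAMA3 reached 40.6% in the HaCaT YAP5SA triplicate. Its A431 siYAP libraries held 51.5, 57.2 and 82.6 CPM against 50.4 CPM, and those of HaCaT 110.3, 99.3 and 148 CPM against 82.2 CPM. Neither difference was called (0.34, FDR 0.685, and 0.54, FDR 0.516). YAP5SA gave 68.5, 132 and 107 CPM against 101 CPM in A431 (0.02, SE 0.39, FDR 1). HaCaT gave 97.1, 74.4 and 147 CPM against 42.6 CPM, at 1.32 (SE 0.43, FDR 0.0541). The HaCaT value passed the threshold with DESeq2 (FDR 0.0054), RLE size factors (FDR 0.0492), either other count filter (FDR 0.0404 and 0.0406) and without YAP5SA replicate 1 or 2 (FDR 0.0473 and 0.0276). It was 1.01 (FDR 0.115) without replicate 3, 0.77 (FDR 0.209) against both controls and 0.52 (FDR 0.318) with the GC offset. PLEC counts were not whole in 3 of the 16 libraries, since the authors' counting shares reads between similar sequences.

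Neither of these laminin-332 chains was called with siYAP, and LAMB3 was called with YAP5SA in HaCaT. LAMA3, the α chain, lay at 193 CPM in A431 siCTRL and at 322, 255 and 297 CPM with siYAP. In HaCaT it lay at 285 CPM against 264, 313 and 298 CPM. LAMB3, the β chain, lay at 262 CPM in A431 siCTRL against 340, 401 and 452 CPM, and at 438 CPM in HaCaT siCTRL against 369, 351 and 381 CPM. The A431 siYAP libraries lay above their control for both chains and the HaCaT siYAP libraries lay below it for LAMB3. The differences were 0.59 (FDR 0.313) and 0.60 (FDR 0.126) in A431, and 0.03 (FDR 0.975) and -0.25 (FDR 0.556) in HaCaT for LAMA3 and LAMB3. The difference between the lines was -0.56 (FDR 0.687) for LAMA3 and -0.86 (SE 0.30, FDR 0.290) for LAMB3, neither called.

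With YAP5SA, LAMA3 was at 275, 383 and 349 CPM against 266 CPM in A431. HaCaT gave 1104, 2352 and 1384 CPM against 804 CPM, a value of 1.005 (SE 0.33, FDR 0.0597) that missed the threshold and stayed at 1.03 (FDR 0.0737) with the GC offset. LAMA3 passed it with DESeq2 (FDR 0.0128), with no count filter (FDR 0.0440), without HaCaT YAP5SA replicate 1 (1.22, FDR 0.0119) and against both controls (1.57, FDR 0.0202). Without replicate 2 it was 0.63 (FDR 0.0627). LAMB3 was at 398, 356 and 331 CPM against 393 CPM in A431, which was not called (-0.12, FDR 0.916). In HaCaT it was at 613, 931 and 686 CPM against 388 CPM, a rise of 0.94 (SE 0.22, FDR 0.0186, 1.91-fold). It lay above the HaCaT siCTRL library as well. The offset for GC content left LAMB3 at 0.62 (FDR 0.122), and in HaCaT fitted alone 0.95 (FDR 0.0527). In both chains YAP5SA replicate 2 of HaCaT, which also held the most YAP1 (22243 CPM), was the highest. Its GC-rich genes also lay lowest of the triplicate relative to GC-poor ones (log2 -0.55 against -0.22 and -0.12). A link to the YAP1 level was not tested.

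Against siYAP, LAMA3 gave the largest difference of the 9 genes in HaCaT, and LAMB3 was called as well. LAMA3 was higher with YAP5SA by 2.47 (SE 0.23, FDR 9.54e-07, 5.54-fold) and LAMB3 by 1.02 (SE 0.15, FDR 5.09e-05, 2.02-fold). In A431 the same contrasts were 0.20 (FDR 0.498) and -0.14 (FDR 0.494), neither called. The ratio of LAMA3 to LAMB3 in CPM was 0.650 to 0.892 in the 4 HaCaT siRNA libraries and 1.80 to 2.53 in the 4 HaCaT vector libraries, empty vector included. In A431 it ran from 0.636 to 1.07 over all 8 libraries.

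Start regions of LAMA3, LAMB3 and COL17A1 are shown for their sequence. For LAMB3 only the window with a motif match is printed, and the ITGA6 and DST windows are not. RefSeq windows (GRCh38.p14) were matched by symbol for 5 of the 9 genes, LAMB3 and DST with 3 starts each, ITGA6 with 2, COL17A1 and LAMA3 with 1. The 250 bases before each start were searched on both strands for TGANTCA, the core of the AP-1 motif, and GGAATG, the core of the TEAD motif, which do not overlap each other. YAP acts through TEAD factors, and AP-1 factors often bind the same enhancers. Of 35116 windows in the table, 6.57% held the AP-1 letters and 11.9% the TEAD letters. LAMA3 held 2 AP-1 matches, 125 and 69 bases before the start, and 1 of the 3 LAMB3 windows held 1, 67 bases before it. None of the COL17A1 and ITGA6 windows held either motif, and 1 DST window held a TEAD match. The LAMA3 window is chr18:23872770-23873019 on the + strand, the LAMB3 window chr1:209651375-209651624 on the - strand and the COL17A1 window chr10:104085881-104086130 on the - strand. Capitals mark the AP-1 matches, and a match of letters is not evidence of binding.
LAMA3: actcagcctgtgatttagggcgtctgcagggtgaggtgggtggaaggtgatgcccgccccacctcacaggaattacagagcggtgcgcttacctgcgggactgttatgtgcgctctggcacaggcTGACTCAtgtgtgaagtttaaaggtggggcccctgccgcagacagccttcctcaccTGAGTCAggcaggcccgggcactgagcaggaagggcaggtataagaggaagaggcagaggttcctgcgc
LAMB3: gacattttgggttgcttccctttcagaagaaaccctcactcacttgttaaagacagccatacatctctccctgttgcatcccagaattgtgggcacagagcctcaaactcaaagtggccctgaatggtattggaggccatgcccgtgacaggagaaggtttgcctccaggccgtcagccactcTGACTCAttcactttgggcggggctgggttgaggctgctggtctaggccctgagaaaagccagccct
COL17A1: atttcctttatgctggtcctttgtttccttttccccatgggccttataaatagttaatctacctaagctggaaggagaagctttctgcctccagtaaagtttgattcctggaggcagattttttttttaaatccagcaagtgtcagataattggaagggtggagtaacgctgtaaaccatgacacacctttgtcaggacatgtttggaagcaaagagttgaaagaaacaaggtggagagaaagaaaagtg

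Counted over the 9 genes, siYAP gave 1 call in A431 (ITGB4, higher), 0 in HaCaT and 2 over both lines (ITGB4 and COL17A1, higher). In HaCaT 2 of the 9 had an unadjusted p under 0.05, beside 2997 of all genes, and DESeq2 called 1, beside 1345. Of all tested genes, 1.81% were called higher and 3.78% lower in A431, 2.37% and 3.3% in HaCaT, and 5.3% and 7.68% over both lines. The median log2 fold change of the 9 was 0.50 in A431, 0.10 in HaCaT and 0.30 over both lines, beside 0.03, 0.03 and 0.04 for all tested genes. In A431 the medians of all genes also rose with GC content, from -0.07 in decile 2 to 0.32 in decile 10, the richest. With the GC offset the middle value of the 9 was 0.34 in A431 (ITGA3), 0.08 in HaCaT (LAMA3) and 0.20 over both lines (ITGA3).

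YAP5SA against empty vector gave 0 calls in A431, where no gene of 14673 was called by edgeR (0% higher and 0% lower), 828 had an unadjusted p under 0.05 and DESeq2 called 3. None of the 9 had an unadjusted p under 0.05 there and none was called by DESeq2. Without A431 YAP5SA replicate 1, which held the least YAP1 (1494 CPM) of the triplicate, 87 genes were called. HaCaT gave 4 calls, ITGB4, ITGA3 and LAMB3 higher and DST lower, beside 6.99% of all genes higher and 6.64% lower. There 8 of the 9 had an unadjusted p under 0.05, beside 4660 of all genes, and DESeq2 called 6, beside 2777. With the GC offset 1 of the 4 edgeR calls, ITGB4, was kept, and calls over all genes went from 2001 to 824. Over both lines 1 of the 9, ITGA3, was called higher, beside 1.38% of all genes higher and 0.661% lower. The medians of the 9 were 0.02 in A431, 0.94 in HaCaT and 0.41 over both lines, and those of all genes 0.02, 0.01 and 0.03. The medians of the 9 with the GC offset were 0.52 in HaCaT and 0.26 over both lines, beside 0.05 for all genes in each.

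**Figure D3:**
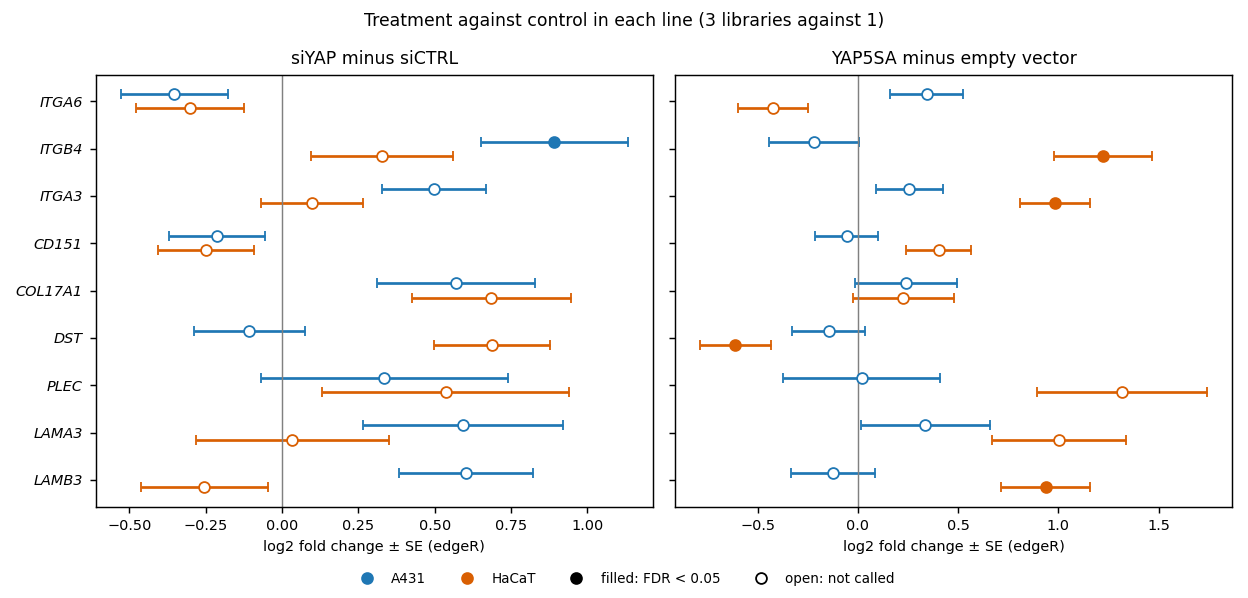
log2 fold change with its SE for each of the 9 genes, siYAP against siCTRL (left) and YAP5SA against empty vector (right), A431 in blue and HaCaT in orange, filled where the FDR is under 0.05. Filled points are ITGB4 with siYAP in A431, and ITGB4, ITGA3, LAMB3 and DST with YAP5SA in HaCaT.

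Over all tested genes the HaCaT YAP5SA differences rose with GC content. The richest GC decile had a median of 0.73 in this comparison, the next 0.42 and the poorest -0.27. ITGB4 (1.22) and PLEC (1.32) lay above the median of their decile, and CD151 (0.40) lay below it. LAMB3 (0.94) and ITGA3 (0.98) lay above the 0.42 of theirs, and COL17A1 (0.23) near its 0.29. LAMA3 (1.005) stood the farthest of the 9 from the median of its decile, 0.03. DST (-0.61) and ITGA6 (-0.42) lay below -0.26 and -0.13. In A431 the medians ran only from 0.07 to -0.12 over the deciles. The part of GC content in the differences was not tested beyond the offset values given above.

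**Figure D4:**
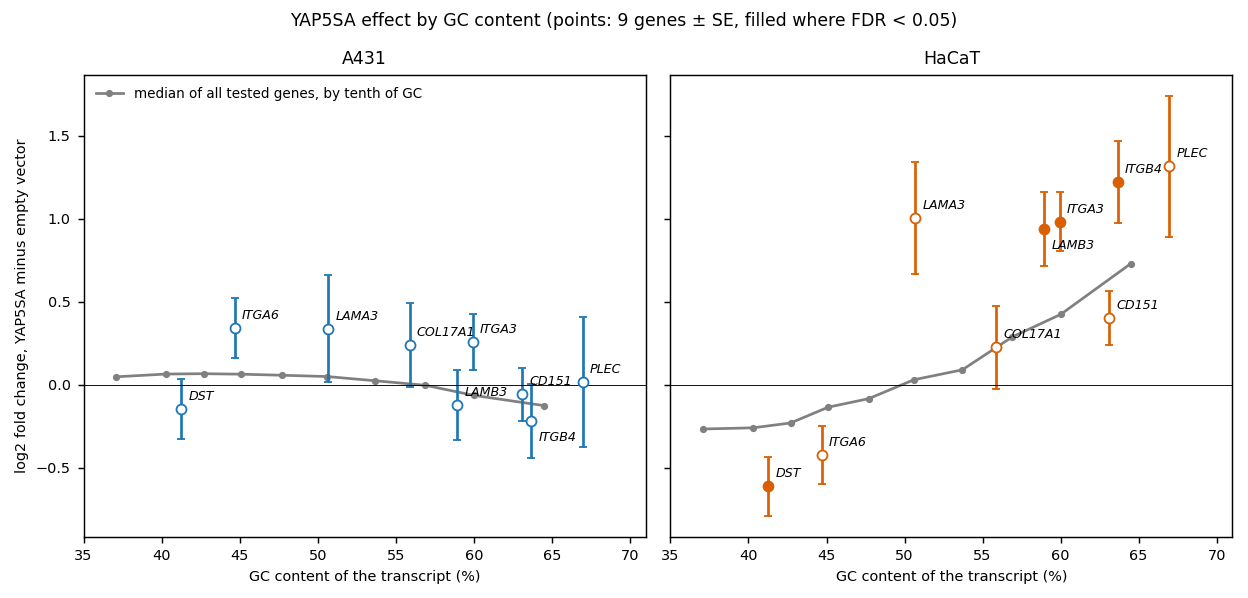
log2 fold change of YAP5SA against empty vector (± SE) against transcript GC content for the 9 genes, A431 left and HaCaT right, with a grey line through the medians of all tested genes by decile of GC. In HaCaT the line climbs from -0.27 to 0.73. Of the GC-rich genes, PLEC, ITGB4, ITGA3 and LAMB3 lie above it and CD151 lies below it.

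No difference between the lines in a treatment effect was called by edgeR among the 9 genes. None was called for siYAP, where 0.123% of all genes were called with a higher and 0.0477% with a lower effect in HaCaT. For siYAP 2 of the 9 had an unadjusted p under 0.05, beside 1690 of all genes, and DESeq2 called 0, beside 294. None was called for YAP5SA, beside 0.0682% and 0.0204%. For YAP5SA 5 of the 9 had an unadjusted p under 0.05, beside 3280 of all genes. ITGB4 (1.44, SE 0.32, FDR 0.0612) and LAMB3 (1.06, SE 0.30, FDR 0.0865) came nearest to a call. DESeq2 called 3 of the 9, beside 943 of all genes. With the GC offset ITGB4 was at 0.69 (FDR 0.161) and LAMB3 at 0.68 (FDR 0.366).

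In YAP5SA against siYAP, 4 of the 9 were called in A431, ITGA6 and COL17A1 higher and ITGB4 and DST lower (DST -0.62, SE 0.13, FDR 0.00238). Of all genes 20% were called higher and 14.6% lower. In HaCaT 5 were called, ITGA6, COL17A1, LAMA3 and LAMB3 higher and ITGB4 lower, beside 31.5% and 28.5% of all genes. DST was at 0.05 (FDR 0.748) in HaCaT. The GC offset added PLEC in A431 (0.88, FDR 0.00539, from 0.69 and 0.0682) and CD151 in HaCaT (0.43, FDR 0.00198, from 0.17 and 0.196), both higher. With the change from siCTRL subtracted from the change from empty vector, 1 of the 9 was called over both lines, DST, lower with YAP5SA than with siYAP (-0.67, SE 0.18, FDR 0.0371), beside 5.99% of genes higher and 3.64% lower. The offset left it at -0.60 (FDR 0.0470). It missed the threshold, at an FDR of 0.0532 to 0.0630, without any 1 of 8 of the 12 treated libraries, namely A431 siYAP 1 or 3, HaCaT siYAP 1, 2 or 3, A431 YAP5SA 2 or 3 and HaCaT YAP5SA 3. ITGA6 (0.29, FDR 0.323), COL17A1 (-0.39, FDR 0.334) and LAMA3 (0.36, FDR 0.504), which differed between the triplicates, were not called in this form.

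The controls themselves differed for several of the 9 genes. Over both lines, empty vector exceeded siCTRL for ITGA6 (0.84, SE 0.16, FDR 0.00147), COL17A1 (1.48, SE 0.22, FDR 0.000354) and LAMA3 (0.98, SE 0.28, FDR 0.0170) and was lower for ITGB4 (-0.75, SE 0.20, FDR 0.0120), 4 calls beside 16.5% of all genes higher and 12.5% lower. All 4 were kept with the GC offset, ITGB4 at -0.50 (FDR 0.00822). Of these 4, COL17A1 and LAMA3 were higher in both lines, with empty vector to siCTRL ratios of 2.16 and 1.38 in A431 and 3.59 and 2.82 in HaCaT. For ITGA6 the ratio was 0.998 in A431 and 3.21 in HaCaT, and for ITGB4 1.36 and 0.260, so that the direction over both lines was set by HaCaT. DST was at 0.667 in A431 and 2.54 in HaCaT. Each ratio compares 1 library with 1 other and has no replicate check. Vector and siRNA handling cannot be told apart from any difference in culture or preparation between these libraries.

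Between the lines, 8 of the 9 genes differed over the mean of the 4 treatments. HaCaT was higher for LAMA3 (1.11, SE 0.16), DST (0.96, SE 0.09), COL17A1 (0.65, SE 0.13), ITGA6 (0.57, SE 0.09), LAMB3 (0.41, SE 0.11) and ITGB4 (0.39, SE 0.11), and lower for ITGA3 (-0.67, SE 0.08) and CD151 (-0.21, SE 0.08), with FDRs from 6.94e-07 to 0.0294. Of all genes 27.5% were called higher in HaCaT and 33.1% lower, and the CD151 difference turned to 0.10 with the GC offset. The offset left the other 7 called, at 1.07 for LAMA3, 0.81 for DST, 0.73 for COL17A1, 0.44 for ITGA6, 0.58 for LAMB3, 0.72 for ITGB4 and -0.46 for ITGA3, with FDRs from 1.12e-06 to 0.000422. CD151 also missed the threshold without HaCaT siYAP replicate 3 (FDR 0.0877). ITGA3 was lower in all 8 HaCaT libraries than in any A431 library, and DST higher in 7 of 8 than in any. The others overlapped more. LAMA3, COL17A1, ITGA6 and ITGB4 were higher in 4 of 8 than in any, and LAMB3 in 3 of 8. For ITGB4 1 of 8 lay below every A431 library, and for CD151 also 1 of 8. PLEC was not called (0.10, FDR 0.660), but was higher in HaCaT with the offset (0.55, FDR 0.00520).

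Within the siYAP triplicates LAMA3 averaged 291 CPM in each line, with a 95% interval of -0.48 to 0.48 for the log2 difference, and ITGA6 differed by -0.041 (interval -0.31 to 0.23). Of the 9 genes 4 were called. ITGB4 (0.80), DST (0.71) and PLEC (0.91) were higher in HaCaT and ITGA3 lower (-0.56), beside 26.9% of all genes higher and 31.7% lower. LAMB3 (-0.12, FDR 0.510) and COL17A1 (0.37, FDR 0.0803) were not called, and COL17A1 was with the GC offset (0.43, FDR 0.0463). Within the YAP5SA triplicates 7 were called, ITGA3 lower and 6 higher, beside 23.5% and 26.6%. LAMA3 was 4.81-fold higher in HaCaT (2.27, SE 0.23, FDR 3.09e-06), DST 2.61-fold, LAMB3 2.06-fold and COL17A1 1.96-fold. The ITGB4 call (0.42, FDR 0.0397, or 0.67 with the GC offset) was lost without any 1 of 5 of these 6 libraries, at an FDR of 0.0593 to 0.191.

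Levels of different genes can be set side by side only per length, here CPM per kb of the annotated transcript with the longest coding sequence. In A431 the order by the mean of 8 libraries was ITGA6 (211 ± 52.3 CPM per kb, SD), COL17A1 (95.9 ± 33.1), ITGA3 (93.8 ± 15.01), LAMB3 (85.2 ± 13.4), CD151 (58.0 ± 5.40), ITGB4 (28.6 ± 8.50), LAMA3 (27.4 ± 5.55), DST (14.2 ± 3.70) and PLEC (5.33 ± 1.96). The ranges of neighbours overlapped from COL17A1 to CD151 and from ITGB4 to DST, while ITGA6 and PLEC stood clear of the rest. In HaCaT the order was ITGA6 (336 ± 190), COL17A1 (165 ± 90.4), LAMB3 (121 ± 48.0), LAMA3 (79.8 ± 69.7), ITGA3 (61.7 ± 11.8), CD151 (52.1 ± 6.22), ITGB4 (44.0 ± 20.4), DST (28.5 ± 7.22) and PLEC (6.56 ± 2.33). In HaCaT the ranges of neighbours overlapped from ITGA6 to DST, and only PLEC stood clear. The SD spans treatments, and the order depends on which transcript is used. With the median length of the coding transcripts DST was at 77.9 CPM per kb in A431 and 157 CPM per kb in HaCaT, and LAMA3 at 68.8 and 200 CPM per kb.

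**Figure D5:**
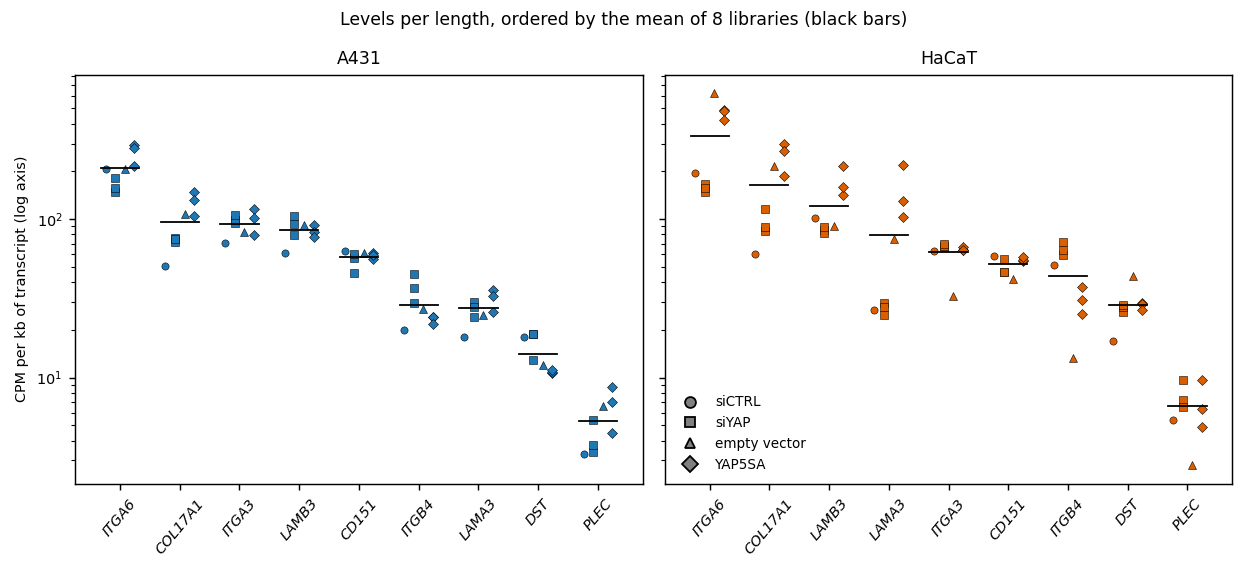
CPM per kb of transcript (log axis) of the 9 genes in A431 (left) and HaCaT (right), 1 point per library with shape for treatment, ordered by the mean of 8 libraries (black bars). ITGA6 leads the 9 genes in both lines (211 and 336 CPM per kb) and PLEC is last (5.33 and 6.56).

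Across the 16 libraries, centred on each line, COL17A1, LAMA3 and ITGA6 moved together, with r of 0.882 for COL17A1 and LAMA3, 0.835 for ITGA6 and LAMA3 and 0.826 for ITGA6 and COL17A1. In the same order these were 0.940, 0.881 and 0.865 in HaCaT and 0.807, 0.473 and 0.717 in A431. LAMA3 and LAMB3 had an r of 0.827, which was 0.900 in HaCaT and 0.339 in A431. Among the genes whose profile was most like the mean of the 9 were IMPDH1 (0.960), FSCN1 (0.959), LINC00941 (0.943) and FAM219A (0.938). Those most like ITGB4 were NR1H2 (0.976), ATG2A and PNPLA6 (both 0.974), those most like COL17A1 were PHF19 (0.980), VPS33A (0.967) and AP2S1 (0.961), and NME6 (0.930) and USP43 (0.916) were among those most like LAMB3. All of these r are over 16 libraries that share 2 lines and 4 treatments, and were picked as among the highest of all genes.

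Of 52 related genes in 5 lists (basement membrane zone, laminin receptors and tetraspanins, keratin partners and plakins, proteases, and kinases, receptors and fragility genes), 50 were tested. With siYAP over both lines 8 of the 50 were called higher and 5 lower, beside 5.3% and 7.68% of all genes, with a median of 0.22 against 0.04 for all genes. A431 alone gave 4 and 1, beside 1.81% and 3.78% of all genes, and HaCaT alone 5 and 3, beside 2.37% and 3.3%. With the GC offset the A431 counts were 1 and 0, beside 720 calls over all genes. Of the 10 keratins and plakins only KRT14 was called over both lines (1.47, SE 0.24, FDR 0.00196), with 8 of the 10 at positive and 2 at negative values. KRT5 was not called in A431 (0.44, FDR 0.552) or HaCaT (-0.12, FDR 0.902). KRT14 lay above its control in 6 of 6 libraries but was at -0.13 in HaCaT when both controls were used. Among matrix genes COL4A6 (1.31, FDR 0.00309) and COL7A1, the anchoring fibril collagen (0.87, FDR 0.0131), rose, and in A431 LAMC1 rose by 0.82 (FDR 0.0191). LAMB1 fell in HaCaT by 1.16 (FDR 0.000426). Of the laminin receptors SDC1 rose (0.32, FDR 0.0227) and DAG1 fell (-0.53, FDR 0.0489). The shedding protease gene ADAM17 fell by 0.66 (SE 0.10, FDR 0.00150) in 6 of 6 libraries, MMP2 rose by 0.67 (FDR 0.0236) and, in A431 alone, BMP1, whose product trims laminin-332, rose by 0.78 (FDR 0.0446). With the GC offset the SDC1 (0.22, FDR 0.0692) and BMP1 (0.55, FDR 0.0601) calls were lost, and DAG1 was lost without any 1 of the 6 siYAP libraries. The kinase genes PTK2 (0.78, FDR 0.00364) and FYN (0.61, FDR 0.0167) rose.

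With YAP5SA in HaCaT 9 of the 50 related genes were called higher and 2 lower, beside 6.99% and 6.64% of all genes, with a median of 0.20 against 0.01 for all genes. The GC offset gave 6 called higher and 4 lower, beside 3.58% and 2.03%, with a median of 0.12 against 0.05. In A431 none was called by edgeR. NID2 (2.15, SE 0.45, FDR 0.0112) and COL4A1 (1.08, SE 0.22, FDR 0.0101), both of the basement membrane, rose the most of their list. KRT15, a keratin of basal and follicle stem cells, fell by 2.23 (SE 0.37, FDR 0.00516) and KRT17 rose by 0.87 (FDR 0.0481), or 0.37 (FDR 0.410) with the GC offset. FYN rose by 1.27 (FDR 0.00874) and SRC by 1.08 (FDR 0.00547). Over both lines 3 were called higher and 1 lower, beside 1.38% and 0.661% of all genes. They were KRT15 at -1.24 (FDR 0.0382), MET at 0.61 (FDR 0.0255), FYN at 0.68 (FDR 0.0470) and SRC at 0.52 (FDR 0.0499). SRC was higher than its control in 4 of 6 libraries and was named after its value was seen. The KRT15, FYN and MET calls over both lines were lost without A431 YAP5SA replicate 2 or 3. FYN turned to -0.56 in HaCaT and -0.31 over both lines when siCTRL and empty vector served together as controls.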

How the data were processed

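Paired reads were trimmed to 75 bp by the authors and quantified with RSEM against RefSeq models, and they deposited estimated counts per gene, unscaled and unfiltered, in 1 table of 16 libraries. Per the labels the tool was RSEM 1.2.11 with the build hg19, and the methods name another RSEM release. Estimated counts were rounded. In R 4.3.3, edgeR 4.0.16 was used with TMM scaling, a filter on mean count (above 10, leaving 14673 genes), 1 model of 8 groups with 8 residual degrees of freedom, a prior count of 0.125 and the quasi-likelihood test. P-values were adjusted by Benjamini-Hochberg over all tested genes, with calls made below 0.05 where logCPM exceeded 1. The SE is the log2 fold change divided by the square root of F. The test was also run on simulated counts in which control and treated libraries had the same spread. That run cannot check the calls against single controls, whose real spread was not measured. CPM are TMM-scaled. Transcript length and GC content came from GENCODE v29, with GC for 92.9% of tested genes. Python 3.11.15 with pandas 2.3.3 and matplotlib 3.10.9 made summaries and plots.

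The 9 genes, the 5 related lists and the marker lists were chosen with earlier results of these data known. Genes named are the 9, YAP1, up to 2 called genes with the largest change of each related list in each arm comparison, and the genes with the most similar profiles. Some genes that this rule names are not reported here. Alternatives were RLE size factors, DESeq2 1.42.0, dropping the count filter, a stricter one (every library above 10), separate fits of the lines, pooling both controls of a line, leaving out 1 treated library at a time, and a replicate block. The GC offset, a lowess curve per library, was added after the data were seen. Libraries within a triplicate differed by more than sampling noise (chi-square per degree of freedom 6.75 to 143). Deviations of same-numbered libraries of the 2 lines had an r of 0.363, 0.158 and 0.135 for YAP5SA and 0.0201, 0.113 and 0.209 for siYAP. Between siYAP and YAP5SA the r was 0.037, 0.125 and 0.0557 in HaCaT and 0.0452, 0.0236 and -0.0278 in A431. Whether the numbers pair the libraries is not given by the labels. No library column was left out. Each library held at least 18115624 counts, and the effect of depth was not tested. With 1 library per control, the spread between controls could not be estimated.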

Additional observations from a re-analysis of the deposited data

Results flagged for a closer look

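One related gene had a treatment effect that differed between the lines by test. For LAMB1, a laminin chain that is no part of laminin-332, the siYAP effect in HaCaT minus that in A431 was -1.39 on the log2 scale (SE 0.20, FDR 0.0183 by edgeR's quasi-likelihood test). LAMB1 lay at 95.2 CPM in HaCaT siCTRL and at 38.9, 48.6 and 40.1 CPM with siYAP, and at 345 CPM in A431 siCTRL against 392, 405 and 416 CPM. None of the 9 hemidesmosome and laminin-332 genes had such a difference called.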

How the results depend on the processing

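Of the values for single genes under the alternatives, 1695 kept their direction and side of the threshold, 92 lost a call, 45 gained one, 6 called values reversed and 59 uncalled values moved. The counts of the 9 genes called moved as follows. For siYAP in A431 the count of 1 became 2 with DESeq2 and 0 with 2 controls, and 0 to 1 without 1 library, 0 without replicate 2 or 3. For siYAP in HaCaT the count of 0 became 1 with the stricter filter, DESeq2, 2 controls (there ITGA6, lower) and the GC offset. For siYAP over both lines it ran from 0 to 2 without 1 library, 0 without the third siYAP library of A431 or HaCaT and 1 without A431 replicate 1 or HaCaT replicate 2. With 2 controls it stayed at 2, with ITGA6 (lower) in place of COL17A1. For YAP5SA in HaCaT the count of 4 became 6 with DESeq2, 2 with 2 controls and 1 with the GC offset. With 2 controls LAMB3 was kept and LAMA3 was newly called, while ITGB4, ITGA3 and DST lost their calls. For YAP5SA over both lines the count of 1 became 3 with DESeq2, 0 with the GC offset, and 0 to 2 without 1 library, 0 without A431 replicate 2 or 3 and 2 without HaCaT replicate 1. For the difference between lines in the YAP5SA effect it became 1 with the stricter filter, 3 with DESeq2, and 0 to 3 without 1 library, at 3 without the first A431 library and at 2 and 1 without the first and the second of HaCaT. For YAP5SA against siYAP net of the controls it ran from 0 to 2, at 2 without the first A431 YAP5SA library. Calls over all genes moved too. For siYAP they went from 821 to 1430 (DESeq2), 198 (2 controls) and 333 to 542 (without 1 library) in A431, from 832 to 1345, 2941 and 518 to 704 in HaCaT, where HaCaT alone gave 349, and from 1904 to 2933 (2 controls) over both lines. For YAP5SA in HaCaT they went from 2001 to 824 (GC offset), 653 (HaCaT alone) and 1142 (without replicate 3). The difference between lines had 25 calls for siYAP (6 to 294 under the alternatives) and 13 for YAP5SA (1 to 943), and YAP5SA against siYAP net of the controls 1413 (828 to 2415). They went from 0 to 87 for YAP5SA in A431 without replicate 1, and from 300 to 1063 with DESeq2 and to 766 with 2 controls and to 48 to 1367 without 1 library for YAP5SA over both lines.

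With siCTRL and empty vector as 2 controls, KRT14 with siYAP in HaCaT turned to -0.13, COL17A1 with siYAP over both lines to -0.30, ITGB4 with YAP5SA in HaCaT to -0.054, and FYN with YAP5SA to -0.56 in HaCaT and -0.31 over both lines. CD151 between the lines turned to 0.10 with the GC offset. The cause was not tested, beyond the construction of each alternative. The replicate block gave 7 calls among the 9 genes for HaCaT against A431 with YAP5SA, as without it, and 7 with the GC offset added. It added PLEC to YAP5SA against siYAP in A431 (5 calls) and COL17A1 to HaCaT against A431 with siYAP (5 calls), and changed no other call. The labels do not say whether the numbers pair the libraries in these comparisons. Controls share too few numbers for a block in the arm comparisons. Per length, the median transcript length moved ITGA3 to 153 and 101, CD151 to 125 and 112, COL17A1 to 153 and 264, DST to 77.9 and 157 and LAMA3 to 68.8 and 200 CPM per kb in A431 and HaCaT.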
